A study of Homo sapiens with 4 samples.

Results

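Keratins and the other intermediate filament genes were described in RNA-seq libraries of WT cells and of C/EBPβ enh-/- cells, made with CRISPR/Cas9 by deleting an enhancer of the C/EBPβ gene from both alleles. The members were the protein-coding genes named KRT with a number, together with VIM, DES, GFAP, NES, SYNM, the neurofilament genes, INA, PRPH and the 3 lamin genes. The rule found 67 genes, 55 keratins and 12 others, among 57768 gene entries, of which 19403 were protein-coding. NEFL had no matched identifier and was not analysed here.

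There were 4 libraries, 2 per genotype, all labelled as HepG2 and grown in DMEM with fetal bovine serum. They carry the same flow cell and lane in their labels. The value per gene is FPKM, the number of sequenced fragments normalized to transcript length and to library size, so levels of different genes can be compared per length. The spacing of low values, of which from 47.0% to 49.8% in a library lay within 0.1 of a whole fragment, gave approximate depths of 39500000 and 44500000 fragments for WT and of 22000000 and 48700000 for C/EBPβ enh-/- libraries, so that C/EBPβ enh-/- library 1 was the shallowest. Nothing in the labels says that replicates came from separate cultures, so p-values measure only the spread between these libraries, which may be technical. Whether the C/EBPβ enh-/- cells derive from a single clone is not stated in the sources used here.

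CEBPB, which encodes C/EBPβ and checks the genotype labels, had FPKM values of 30.6 and 19.2 in WT against 12.4 and 11.8 in C/EBPβ enh-/- libraries. Each WT library was above each C/EBPβ enh-/- library, and the difference did not pass the threshold (adjusted p = 0.125, limma). The tissue label was set against 16 genes typical of hepatocytes, of which 15 did not reach an FPKM of 1 in any library. Albumin (ALB), the main secreted protein of hepatocytes and of HepG2 cells, had 0.0553 in WT library 1 and 0.000783 in C/EBPβ enh-/- library 2 and was listed at 0 in the others, and AFP reached 0.0605 at most. CPS1, a mitochondrial enzyme of the urea cycle, was the exception, with 608 and 417 in WT against 242 and 360.2 in C/EBPβ enh-/- libraries. The defining markers of the labelled cell type were thus at or near 0, and HepG2 is used below as the label of the libraries, not as a tested identity.

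Intermediate filaments are rope-like polymers that give cells and nuclei mechanical strength. Keratins, the filaments of epithelia, form from a type I and a type II partner in equal amounts, and the simple epithelial partners KRT8 and KRT18 are the keratins of hepatocytes, while KRT7 and KRT19 are typical of bile duct cells. Vimentin is the type III filament of mesenchymal and many cultured cells, and the lamins line the inner face of the nuclear envelope.

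In the C/EBPβ enh-/- libraries, KRT8, KRT18 and KRT80 were lower than in WT libraries, KRT17 lay between the WT libraries, and vimentin and the lamins did not pass the test. Of the 67 members, 13 averaged an FPKM of 1 or more and were tested with limma on log2(FPKM + 1), with p-values adjusted over all 12491 genes tested. Among these 13, 3 were lower at an adjusted p under 0.05, against 151 lower genes, or 1.21%, of all tested genes, and 0 were higher, against 31 genes or 0.248%. With libraries centred on their median the split of all tested genes was 68 lower and 31 higher, and with FPKM rescaled to the same protein-coding total it was 57 and 29. When protein-coding genes alone were tested, which all members are, 5 members were lower against 457 of 10909 genes, or 4.19%, and 0 higher against 60 genes, or 0.55%. With no filter on low values limma called 0 members and 0 genes in either direction, with 11 members lower and 1 higher and 2710 genes lower and 1136 higher before adjustment. Before adjustment, 8 members were lower and 0 higher at p under 0.05 (limma), against 2114 lower genes, or 16.9%, and 482 higher genes, or 3.86%, of all tested genes. These counts depended on the scaling: centred, 6 members were lower beside 1263 lower and 1142 higher genes, and rescaled, 6 members beside 1171 and 1253 (limma). In 9 of the 13, each C/EBPβ enh-/- library was below each WT library, against 37.5% of all tested genes, and in 0 it was above each WT library, against 15.1%. The filter can favour genes that are high in one genotype, so these counts describe the members that passed it and not all 67. Bulk RNA cannot tell fewer cells with a transcript from less transcript per cell.

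The median log2 fold change, C/EBPβ enh-/- minus WT, was −0.84 over the 13 tested members and −0.14 over all tested genes, a difference of −0.70. The median of all genes moved to 0.03 when libraries were centred, a shift of 0.17, so changes of members are also given relative to all genes, meaning minus the median of −0.14. The 8 tested keratins had a median of −1.53 and the 5 other tested members of −0.33. KRT81 and KRT86 reached the filter only through the WT libraries. The medians over the 13 members and over the 8 keratins thus depend in part on the genotype in which these 2 are high. The median of −0.84 is the value of KRT10. With a mean FPKM of at least 5 as the filter, 9 members had a median of −0.72. Among the 627 genes that averaged an FPKM of 100 or more, 1.28% were called lower and 0.638% higher, with a median log2 fold change of −0.23. Of the 6 members at that level, KRT8 and KRT18 were called lower and 0 were called higher, with a median of −1.12.

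**Figure D1:**
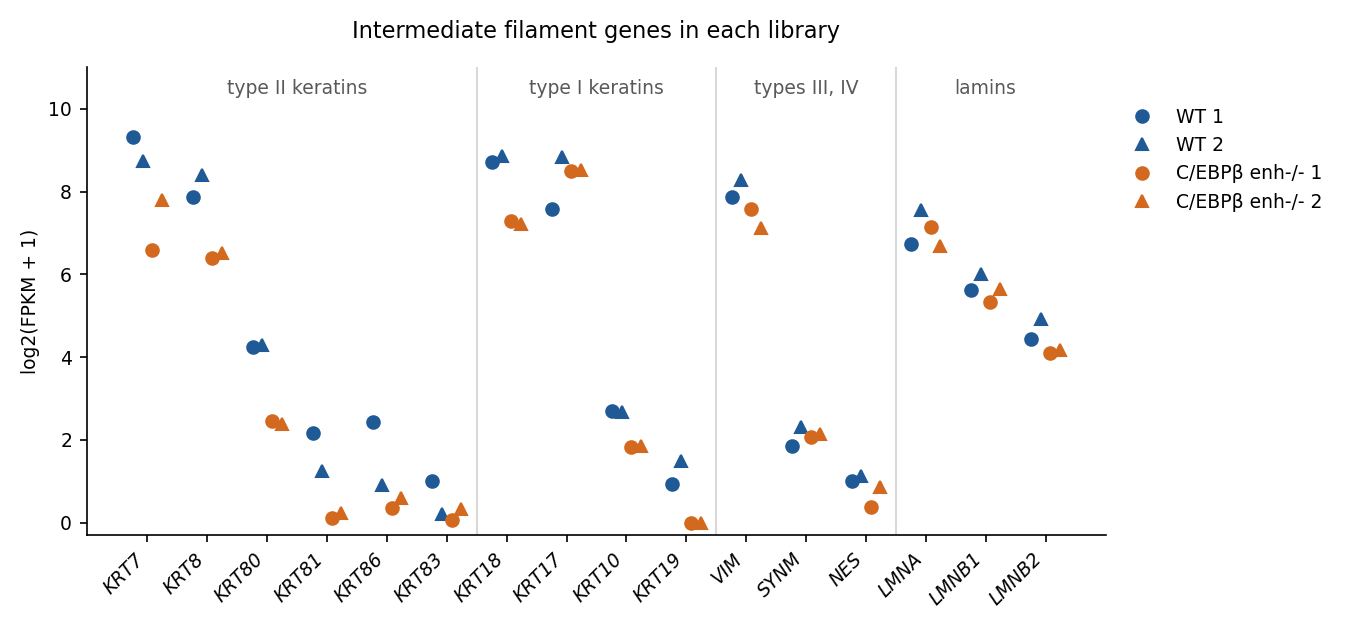
Levels of the 13 tested members and of KRT83, KRT19 and NES as log2(FPKM + 1) in each library, with circles for replicate 1 and triangles for replicate 2. KRT7, KRT8, KRT80 and KRT18 are lower in both C/EBPβ enh-/- libraries, while KRT17, SYNM, LMNA and LMNB1 overlap between genotypes.

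KRT8 and KRT18 are usual partners in simple epithelial filaments. KRT8 (ENSG00000170421.7, type II, chromosome 12 from 53290971 to 53343738 on GRCh37, minus strand) had FPKM values of 231 and 335 in WT against 82.6 and 90.0 in C/EBPβ enh-/- libraries. KRT18 (ENSG00000111057.6, type I, chromosome 12 from 53342655 to 53346690, plus strand) had 416 and 461 against 155 and 148. For both genes the C/EBPβ enh-/- libraries lay close together and far below the WT libraries. Mean FPKM went from 283 ± 73.2 (SD, n = 2) to 86.3 ± 5.24 for KRT8, a ratio of 0.305, and from 438 ± 31.6 to 152 ± 5.25 for KRT18, a ratio of 0.346. The log2 fold change of KRT8 was −1.68 (standard error 0.25, 95% interval −2.27 to −1.09, adjusted p = 0.0325, limma), or −1.54 relative to all genes. That of KRT18 was −1.52 (standard error 0.20, 95% interval −2.00 to −1.04, adjusted p = 0.0243, limma), or −1.38 relative to all genes. The ratio of KRT8 to KRT18 FPKM was 0.556 and 0.726 in WT against 0.532 and 0.609 in C/EBPβ enh-/- libraries. Both partners were lower, and their ratio overlapped between genotypes (two-sided exact permutation p = 0.667). With 2 libraries against 2 the smallest possible p is 0.33, so this test could not have shown a difference.

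These calls depended on the scaling, on a replicate block and on single libraries. With the block, KRT8 passed (adjusted p = 0.0466, limma) and KRT18 did not (0.0524). With libraries centred on their median, KRT18 passed (adjusted p = 0.0418, limma) and KRT8 did not (0.0607), and with FPKM rescaled to the same protein-coding total neither passed (0.0509 for KRT18 and 0.0706 for KRT8). With any single library left out, which leaves 1 library in a genotype that is assumed to vary like the other, no member passed the threshold, and from 19 to 63 genes in all were called lower. Before adjustment, 6 or 7 members and from 1207 to 1958 genes were lower at p under 0.05 (limma), and 1 member, KRT17, was higher without WT replicate 2, beside 319 of 12476 genes. The log2 fold change of KRT8 then ranged from −1.94 to −1.41 (adjusted p 0.0769 to 0.180) and that of KRT18 from −1.60 to −1.45 (adjusted p 0.0715 to 0.153). The annotated spans of KRT8 and KRT18 share 1084 bases on opposite strands, and whether fragments were counted by strand is not given in the sources used here. Each gene has many processed pseudogenes, 51 for KRT8 and 67 for KRT18, whose summed FPKM was between 1.10% and 5.34% of KRT8 and between 0.540% and 3.30% of KRT18 in the 4 libraries.

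KRT7 and KRT19 are the keratins by which bile duct epithelium is commonly told from hepatocytes. KRT7 (ENSG00000135480.10, type II, chromosome 12 from 52626304 to 52645970, plus strand) was the most abundant member in WT library 1, with FPKM values of 636 and 429 in WT against 95.4 and 220.2 in C/EBPβ enh-/- libraries. All C/EBPβ enh-/- values were below all WT values, but libraries of the same genotype stood further apart than for KRT8 and KRT18. The mean was 533 ± 147 (SD, n = 2) against 158 ± 88.2, and the log2 fold change of −1.84 (95% interval −2.82 to −0.87), or −1.70 relative to all genes, did not pass the threshold (adjusted p = 0.0816, limma). It passed when protein-coding genes alone were tested (adjusted p = 0.0338, limma) and when genes listed at 0 in any library were left out (0.0499), and under none of the other alternatives, with 0.133 when centred and 0.161 when rescaled. With single libraries left out it ranged from −2.44 without C/EBPβ enh-/- replicate 2 to −1.24 without C/EBPβ enh-/- replicate 1 (adjusted p 0.0569 to 0.374, limma). KRT19, the type I keratin that lacks most of the tail domain, had 0.907 and 1.81 in WT libraries, and both C/EBPβ enh-/- libraries listed it at 0. Its mean was below the filter, so it was not tested. Other markers of bile duct cells were as low: 4 of the 5 matched genes of that list were below 1 in all libraries, and the highest, CFTR, had 0.0928, 0.193, 0.174 and 1.59.

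KRT17 is a type I keratin of basal and injured stratified epithelium. Its FPKM (ENSG00000128422.11, chromosome 17 from 39775694 to 39781094, minus strand) was 190.2 and 458.5 in WT against 359 and 367 in C/EBPβ enh-/- libraries. The C/EBPβ enh-/- values lay between the WT values, which differed from each other more than from either of them. The log2 fold change was 0.30 (95% interval −0.64 to 1.24, adjusted p = 0.709, limma), or 0.44 relative to all genes, and was −0.34 without WT replicate 1, so no direction can be given. KRT14 and KRT16, close relatives with which KRT17 can share fragments, reached 0.0126 and 0.607 at most, and the 8 KRT17 pseudogenes summed to at most 0.110% of KRT17. Other markers of basal and squamous epithelium were mixed: TP63, the defining factor, reached 0.0344 at most, and SFN, an epithelial 14-3-3 protein, had 32.1, 49.0, 44.7 and 29.6. The list summed to 41.3 and 58.0 in WT against 52.2 and 35.1 in C/EBPβ enh-/- libraries, most of it SFN. S100A2, a calcium-binding protein, had 2.97 and 3.51 against 1.81 and 1.67. ITGB4, an integrin of hemidesmosomes, had 0.460 and 0.464 against 0.107 and 0.136. Both were lower in each C/EBPβ enh-/- library and were named after their values were seen. ITGA6 overlapped, with 5.63 and 4.84 against 5.49 and 3.62. DSG3 was near 0 and higher in both, with 0.0604 and 0.0539 against 0.0622 and 0.0951. Of the list, 3 were tested and 0 passed (1 lower and 0 higher before adjustment, limma).

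KRT80, a type II keratin found near desmosomes in many epithelia, gave the lowest p of the members. Its FPKM (ENSG00000167767.9, chromosome 12 from 52562780 to 52585798, minus strand) was 17.8 and 18.7 in WT against 4.46 and 4.18 in C/EBPβ enh-/- libraries. Libraries of a genotype were nearly equal, and the genotypes were far apart. The mean was 18.2 ± 0.635 (SD, n = 2) against 4.32 ± 0.201, a ratio of 0.237. The log2 fold change was −1.85 (standard error 0.21, 95% interval −2.35 to −1.35, adjusted p = 0.0184, limma), or −1.71 relative to all genes. It passed under 8 of 13 alternatives, among them both rescalings (adjusted p 0.0258 and 0.0338, limma), and ranged from −1.89 to −1.81 when single libraries were left out, with adjusted p from 0.0570 to 0.153.

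KRT10, the type I keratin of upper layers of skin, was the only other keratin outside the hair group to pass the filter. It had 5.53 and 5.35 in WT against 2.55 and 2.63 in C/EBPβ enh-/- libraries, lower in both (log2 fold change −0.84, or −0.70 relative to all genes, adjusted p = 0.111, limma). The antisense gene KRT10-AS1 shares 3514 bases with it and had higher FPKM, 12.4 and 10.5 against 4.93 and 5.82. Without known strand, the KRT10 values cannot be assigned to KRT10 alone.

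Hair keratins are the hard keratins of hair and nail. KRT86 and KRT81 were the members of this group that passed the filter, with KRT86 at 4.42 and 0.866 in WT against 0.279 and 0.516 in C/EBPβ enh-/- libraries. KRT81 was at 3.49 and 1.38 against 0.0711 and 0.182. Both genes were highest in WT library 1 and low in both C/EBPβ enh-/- libraries. They reached the filter only through the WT libraries, so the tests depend on the genotype in which they are high. Neither passed (log2 fold change −1.19, adjusted p = 0.240, and −1.54, adjusted p = 0.0913, limma), although KRT81 did among protein-coding genes alone (adjusted p = 0.0427, limma). Relative to all genes the changes were −1.05 and −1.40. With a pseudocount of 0.1 the log2 fold changes were −2.11 and −3.39, and neither passed (adjusted p = 0.219 and 0.0910, limma). Without WT replicate 1 the log2 fold change of KRT86 was −0.42 and that of KRT81 −1.08, and without WT replicate 2 they were −1.96 and −2.00. KRT83, their close relative, had 1.001 and 0.157 in WT against 0.0488 and 0.265. The 3 genes are close relatives in sequence and the annotated spans of KRT81 and KRT86 overlap by 5622 bases, so how fragments were divided between them is uncertain. KRT86 also shares 2887 bases on the same strand with KRT7, which was far more abundant.

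**Figure D2:**
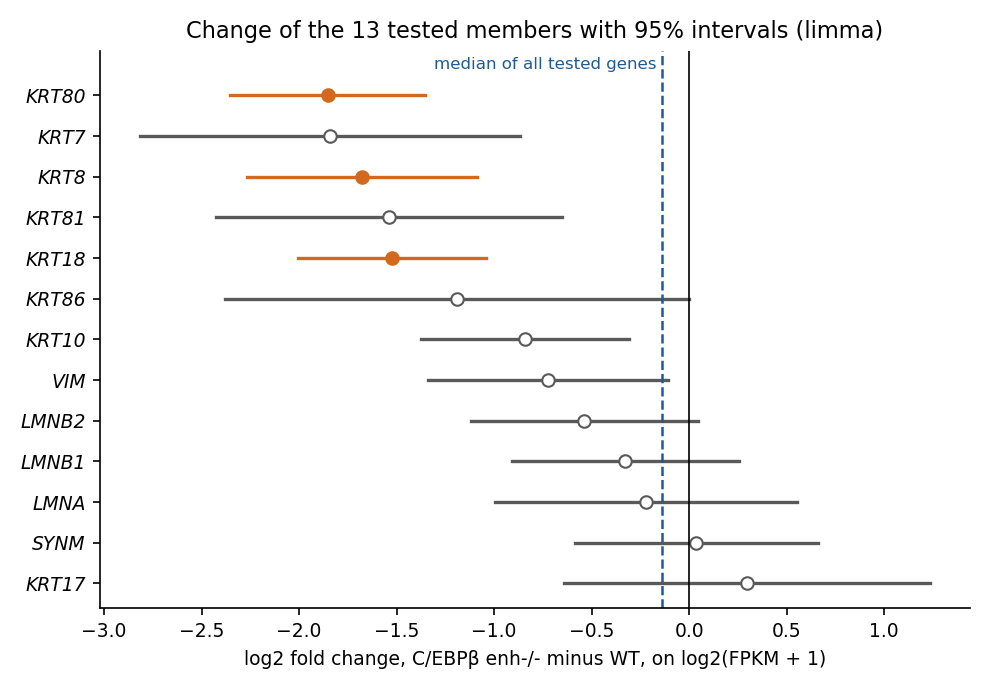
Log2 fold change of each tested member, C/EBPβ enh-/- minus WT, with its 95% interval from limma, filled where the adjusted p was under 0.05, and the median of all 12491 tested genes as a dashed line. KRT80, KRT8 and KRT18 are called lower, and the interval of KRT17 spans −0.64 to 1.24.

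The other 54 members had a mean FPKM below 1. Of these, 20 were listed at 0 in all libraries and 42 were below 0.1 in every library. By the mean of all 4 libraries NES was the highest of them, while KRT19 had the highest single value. KRT19, KRT83 and NES were the 3 that reached 1 in a library. Among the stratified type II keratins other than KRT80 the highest value was 0.596, among the stratified type I keratins other than KRT17 and KRT10 it was 0.607, and the 11 type I hair keratins stayed at or below 0.0885. The inner root sheath keratins of both types reached 0.0312 at most, and KRT222 was listed at 0 in every library.

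Because each filament needs both keratin types, the types were also summed. Type II keratins summed to an FPKM of 895 and 785 in WT against 183 and 315 in C/EBPβ enh-/- libraries, lower in both. Type I keratins summed to 613 and 927.5 in WT, both above the 519 of each C/EBPβ enh-/- library. These sums were not rescaled to the same protein-coding total. That total was 378009 and 396336 in WT against 344876 and 316994 in C/EBPβ enh-/- libraries. The gap between 613 and 519 therefore depends on how libraries are scaled, and no separation of the type I sum can be given. The ratio of type II to type I was 1.46 and 0.847 in WT against 0.353 and 0.608 in C/EBPβ enh-/- libraries, so both were below both WT libraries. The difference of the mean log2 ratio, C/EBPβ enh-/- minus WT, was −1.26. The two-sided exact permutation p was 0.33, the smallest that 2 libraries against 2 can give. A ratio within a library does not depend on how libraries are scaled to each other.

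The make-up of the keratins was also set out by gene. KRT7, KRT8, KRT17 and KRT18 together made up from 97.7% to 99.0% of all keratin FPKM in every library. KRT17 made up 31.0% and 49.4% of type I FPKM in WT against 69.3% and 70.8% in C/EBPβ enh-/- libraries. KRT18 made up 67.8% and 49.7% against 30.0% and 28.5%. KRT17 thus exceeded KRT18 in both C/EBPβ enh-/- libraries, the reverse of WT library 1, while in WT library 2 they were nearly equal, with a KRT18 to KRT17 ratio of 1.005 there, 2.19 in WT library 1, and 0.432 and 0.403 in C/EBPβ enh-/- libraries. The two-sided exact permutation p of that ratio was 0.33, again the smallest possible. Among type II keratins the share of KRT7 did not separate the genotypes, at 71.1% and 54.6% against 52.1% and 69.8%. All keratins together had an FPKM of 1508 and 1713 in WT against 702 and 834 in C/EBPβ enh-/- libraries.

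**Figure D3:**
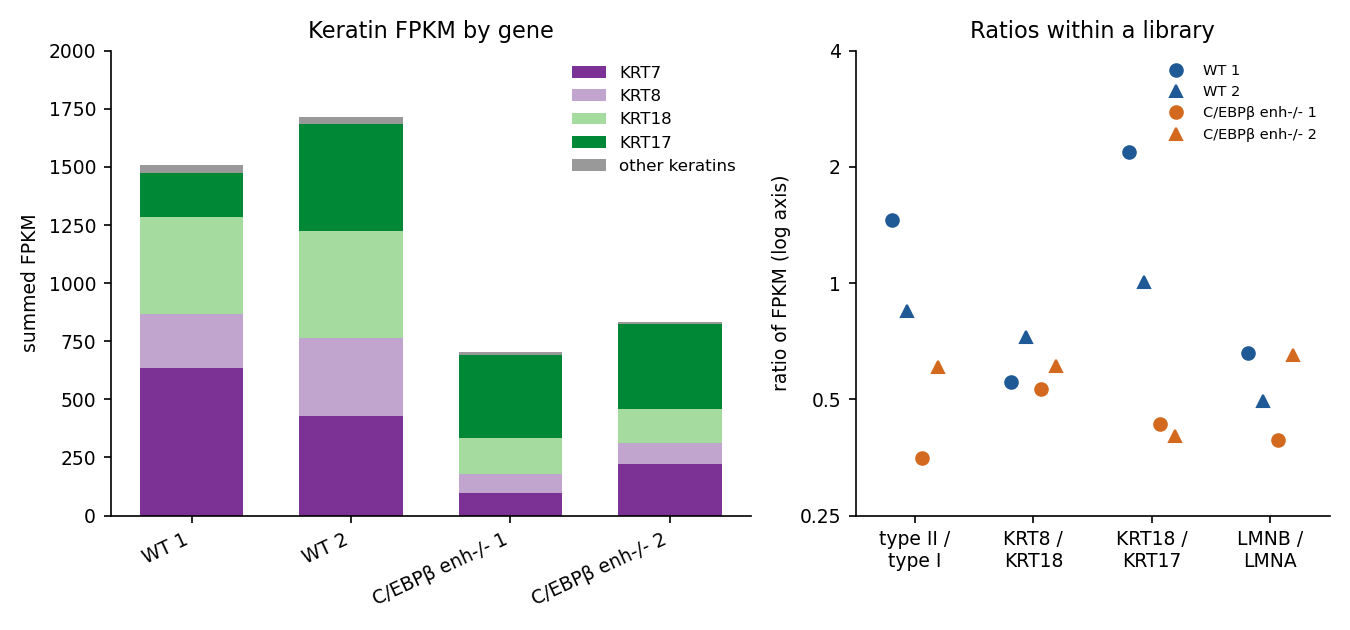
Summed FPKM of keratin genes in each library (left, bars from 0) and ratios of FPKM within each library on a log axis (right), with LMNB for LMNB1 and LMNB2 together. KRT17 is the largest part of the C/EBPβ enh-/- bars, and the KRT8 to KRT18 and lamin ratios overlap between genotypes.

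Keratin genes lie in 2 clusters, which allowed their position to be set beside their change, a view chosen after seeing the data. The type II cluster on chromosome 12 runs from 52562780 to 53346690 on GRCh37 and holds 27 members, with KRT18 as the only type I gene at its edge. Its 6 tested members were KRT80, KRT7, KRT86, KRT81, KRT8 and KRT18, with log2 fold changes from −1.85 to −1.19 and a median of −1.61. Each was lower in both C/EBPβ enh-/- libraries, against 37.5% of all tested genes and 9 of the 19 other tested genes nearby. KRT86 and KRT81 reached the filter only through the WT libraries, so this count and median depend in part on their high genotype. KRT80, KRT7, KRT8 and KRT18 alone ranged from −1.85 to −1.52. The 19 other tested genes within 500 kb of the cluster had a median of −0.13, close to that of all genes, with a range from −0.77 to 0.83, and 0 of them passed the threshold in either direction, with 2 lower and 1 higher before adjustment (limma). Without WT replicate 1 the change of KRT86 was −0.42, a value within the range of the other genes. Over chromosome 12 as a whole, with 662 tested genes, the median was −0.22.

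The type I cluster on chromosome 17, from 38854243 to 39781094, also holds 27 members, of which KRT10 and KRT17 were tested. The 22 other tested genes within 500 kb had a median of −0.44 and ranged from −1.14 to 0.18, with 0 past the threshold, and 8 lower and 0 higher before adjustment (limma), and 14 of them were lower in both C/EBPβ enh-/- libraries. Here the chromosome as a whole was low, with a median of −0.47 over 721 tested genes. KRT10 at −0.84 lay within the range of its neighbours and KRT17 at 0.30 above it. Without WT replicate 1 the change of KRT17 was −0.34, a value within that range.

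**Figure D4:**
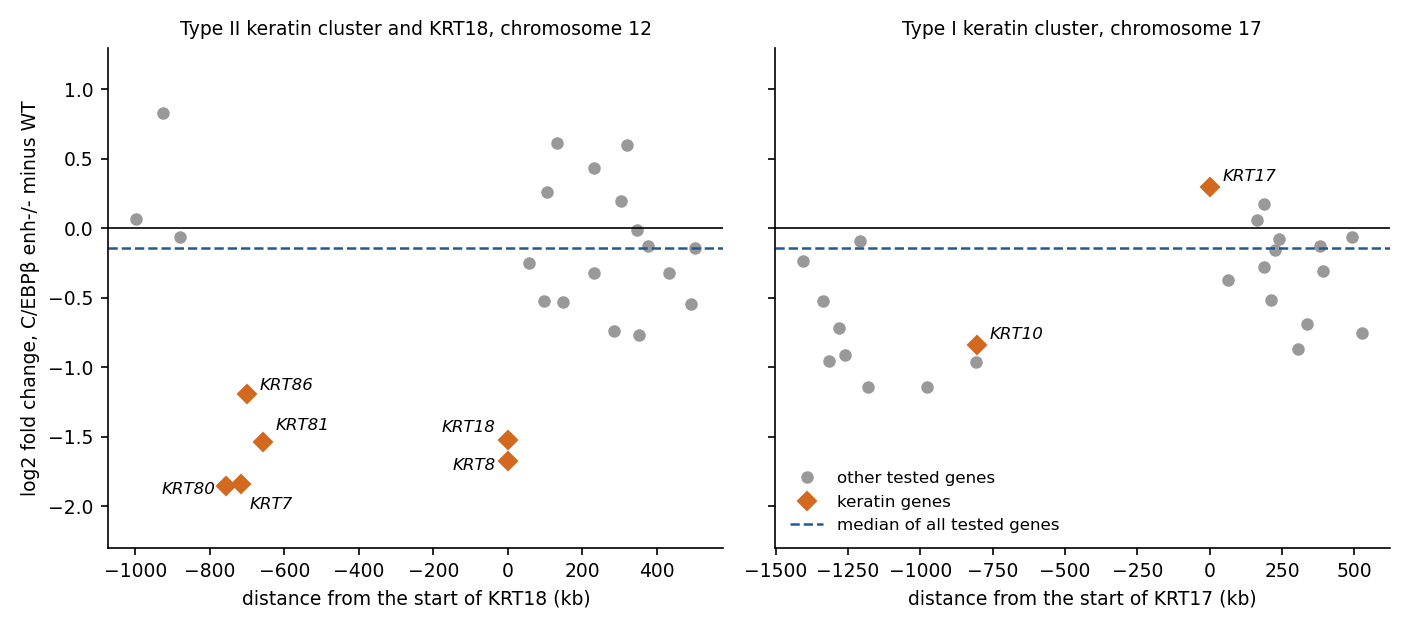
Log2 fold change, C/EBPβ enh-/- minus WT, of tested genes in and within 500 kb of the type II keratin cluster (left) and the type I cluster (right), against the distance of each gene start from that of KRT18 or KRT17 in kb. The 6 keratins on the left lie from −1.85 to −1.19 with all 4 libraries, and KRT86 is at −0.42 without WT replicate 1. KRT86 and KRT81 reached the filter only through the WT libraries.

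Promoter windows from RefSeq on GRCh38.p14, 250 bases before to 50 after a gene start, were matched for 7 of the 13 tested members, with 10 windows in all. KRT7, KRT17, KRT18, KRT80, KRT81 and KRT86 had no entry. The windows were searched for TTGCNNAA, a pattern of C/EBP sites, on either strand. It occurred in 3 of the 10 windows, against 10.5% of the 35116 windows of all genes. The windows that hold it are shown, for KRT8 (chr12:52926420-52926719, minus strand), KRT10 (chr17:40822565-40822864, minus strand) and LMNB1 (chr5:126776886-126777185, plus strand), because KRT8 was called lower and KRT10 and LMNB1 were not. Capitals mark the matches.
KRT8: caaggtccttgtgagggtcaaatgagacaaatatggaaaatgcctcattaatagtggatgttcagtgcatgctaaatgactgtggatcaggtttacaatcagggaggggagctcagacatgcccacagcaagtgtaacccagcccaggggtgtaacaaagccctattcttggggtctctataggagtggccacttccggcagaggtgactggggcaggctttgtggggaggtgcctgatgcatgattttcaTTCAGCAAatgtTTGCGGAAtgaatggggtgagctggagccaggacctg
KRT10: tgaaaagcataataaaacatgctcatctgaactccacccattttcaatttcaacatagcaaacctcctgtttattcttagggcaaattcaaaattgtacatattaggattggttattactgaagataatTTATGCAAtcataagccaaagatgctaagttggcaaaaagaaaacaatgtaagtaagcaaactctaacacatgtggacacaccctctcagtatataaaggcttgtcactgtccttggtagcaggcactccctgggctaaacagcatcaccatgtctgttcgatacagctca
LMNB1: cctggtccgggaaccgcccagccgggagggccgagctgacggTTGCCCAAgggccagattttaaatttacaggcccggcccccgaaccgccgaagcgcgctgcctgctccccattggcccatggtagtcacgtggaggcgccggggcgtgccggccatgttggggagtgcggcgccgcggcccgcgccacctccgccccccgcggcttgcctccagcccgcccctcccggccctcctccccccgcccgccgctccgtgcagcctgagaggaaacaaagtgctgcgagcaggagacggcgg
Distances are from the start on which each window is placed, and a gene can have more than 1 such start. The matches in the KRT8 window begin 1 and 13 bases after that start. Those of KRT10 and LMNB1 begin 121 and 208 bases before it (−121 and −208 from the start). The matches describe letters and not binding, and which start of KRT8 these cells use was not analysed here.

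Vimentin (VIM, ENSG00000026025.9, chromosome 10 from 17270240 to 17279592, plus strand) is the main filament of mesenchymal cells and is also made by many epithelial lines in culture. Its FPKM was 232 and 308.5 in WT against 190 and 138 in C/EBPβ enh-/- libraries. The genotypes did not overlap, with WT library 1 near C/EBPβ enh-/- library 1. The mean was 270.4 ± 53.8 (SD, n = 2) against 164 ± 36.9, and the log2 fold change of −0.72 (95% interval −1.34 to −0.11), or −0.58 relative to all genes, did not pass the threshold (adjusted p = 0.181, limma). The ratio of vimentin to all keratins was 0.154 and 0.180 against 0.271 and 0.165 and overlapped. DES, GFAP and PRPH, the type III filaments of muscle, glia and peripheral neurons, reached 0.167 at most.

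Fibroblast and stellate markers gave the setting for vimentin. The 7 genes summed to 56.4 and 55.4 in WT against 60.3 and 77.5 in C/EBPβ enh-/- libraries, 0 of the 4 tested passed the threshold (1 lower and 1 higher before adjustment, limma), and the most abundant, COL3A1, a fibrillar collagen, had 33.3 and 31.9 against 45.8 and 55.7. COL1A1 overlapped between genotypes, with 15.5 and 11.4 in WT against 10.15 and 14.9 in C/EBPβ enh-/- libraries. ACTA2 also overlapped, with 2.21 and 5.22 against 2.74 and 4.15, as did COL1A2 and LUM, both near 0. Only PDGFRB and DCN had lower values in both C/EBPβ enh-/- libraries. All of these are named here after their values were seen. PDGFRB, a growth factor receptor, had 4.15 and 5.59 against 1.52 and 2.27 (log2 fold change −1.02, adjusted p = 0.110, limma), and DCN, which encodes decorin, had 1.33 and 1.24 against 0.110 and 0.392 and was below the filter. COL3A1 and COL1A1 made up most of the summed level. The part of such cells in the vimentin values was not tested.

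Type IV filaments and their relatives are typical of neurons and progenitor cells. SYNM, which encodes synemin, a large partner of vimentin and desmin, had 2.58 and 3.97 in WT against 3.22 and 3.43 for C/EBPβ enh-/-. The latter lay between the WT values (log2 fold change 0.04, or 0.18 relative to all genes, adjusted p = 0.954, limma). NES, which encodes nestin of progenitor cells, had 1.01 and 1.19 against 0.295 and 0.802 and was below the filter. NEFM was listed at 0 in all libraries, and NEFH and INA were at or below 0.0399. Among 6 neuron and glia markers, SNAP25 was the most abundant with 16.1, 6.16, 5.93 and 17.6, and OLIG2 was listed at 0 throughout.

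Lamins are made by nearly all nucleated cells, A-type from LMNA and B-type from LMNB1 and LMNB2. LMNA had 105 and 186 in WT against 141 and 102 in C/EBPβ enh-/- libraries. LMNB1 had 48.4 and 63.25 against 39.1 and 49.3, and LMNB2 had 20.6 and 29.1 against 16.1 and 17.05. Only LMNB2 was separated, lower in both C/EBPβ enh-/- libraries, while LMNA and LMNB1 overlapped.

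The log2 fold change was −0.22 for LMNA (95% interval −0.99 to 0.55), −0.33 for LMNB1 (−0.91 to 0.25) and −0.54 for LMNB2 (−1.12 to 0.04), with adjusted p-values of 0.738, 0.486 and 0.268 (limma). When single libraries were left out, LMNA ranged from −0.63 to 0.19, LMNB1 from −0.52 to −0.14 and LMNB2 from −0.78 to −0.30. LMNB1 and LMNB2 were nearest 0 without WT replicate 2 and furthest from it without WT replicate 1. Relative to the median of all genes these were −0.08, −0.19 and −0.40, and with FPKM rescaled to the same protein-coding total LMNA was at 0.0038, on the other side of 0. The ratio of B-type to A-type lamin was 0.657 and 0.496 in WT against 0.392 and 0.652 in C/EBPβ enh-/- libraries. These overlapped (two-sided exact permutation p = 0.667, where 0.33 is the smallest possible). The lamins summed to 174 and 279 in WT against 196 and 168 in C/EBPβ enh-/- libraries, so the summed lamin level overlapped between genotypes where the summed keratin level did not.

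Lists of genes that act on filaments were set beside the members. Of 12 plakin and desmosomal plaque genes, which tie filaments to junctions, 10 were tested, 1 was lower and 0 were higher (5 and 0 before adjustment, limma), with a median of −0.43. In 6 of the 10, both C/EBPβ enh-/- libraries were below both WT libraries. The shares of all tested genes were 1.21% lower after and 16.9% before adjustment, and 37.5% without overlap. The lower gene was PPL, which encodes periplakin, a plakin that binds keratins and vimentin. It had 7.53 and 7.62 in WT against 0.611 and 1.02 in C/EBPβ enh-/- libraries, far below in both (log2 fold change −2.25, standard error 0.25, adjusted p = 0.0163, limma). Left-out libraries gave an adjusted p from 0.0357 to 0.125. PPL reached the filter only through the WT libraries. JUP, the plakoglobin of desmosomes and the most abundant of the list, had 58.7 and 65.8 against 81.7 and 51.2 and overlapped.

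Of 16 genes of lamin processing and the inner nuclear membrane, 15 were tested and 0 passed in either direction (2 lower and 0 higher before adjustment, limma), with a median of −0.25, and 4 were lower and 1 was higher in both C/EBPβ enh-/- libraries, against 37.5% and 15.1% of all tested genes. TMPO, which encodes lamina-associated polypeptides, was the most abundant with 119 and 108 against 97.9 and 84.9. Of 8 chaperone and turnover genes, all tested, 0 passed (1 lower and 1 higher before adjustment, limma), with a median of 0.13. The lower gene was HSPB1, with 43.3 and 78.5 in WT against 16.9 and 35.9 in C/EBPβ enh-/- libraries. The higher gene was CRYAB, with 0.778 and 1.07 against 2.39 and 4.82. CRYAB reached the filter only through the C/EBPβ enh-/- libraries. HSPA8, a constitutive chaperone, was the most abundant and varied within the WT genotype from 131 to 957, beside 449.7 and 781. BFSP1, a lens filament gene that the rule left out, had 7.13 and 8.31 against 3.98 and 4.63 (log2 fold change −0.72, adjusted p = 0.148, limma), and BFSP2 reached 0.171 at most.

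Of 9 transcription factors of keratin-rich epithelia, 3 were tested, 2 were lower and 0 were higher (2 and 1 before adjustment, limma). Of all tested genes, 1.21% were lower and 0.248% higher, and 16.9% and 3.86% before adjustment. ELF3, an ETS factor of simple epithelia, had 12.9 and 19.3 in WT against 0.357 and 0.482 in C/EBPβ enh-/- libraries. Both C/EBPβ enh-/- values were a small fraction of either WT value (log2 fold change −3.57, standard error 0.27, adjusted p = 0.00299, limma), and the call held without any single library (adjusted p 0.0268 to 0.0473). ELF3 also reached the filter only through the WT libraries, so the count of this list depends on a gene admitted by its high genotype. KLF5, a factor of proliferating epithelium, had 11.8 and 11.97 against 3.89 and 4.33 (log2 fold change −1.33, standard error 0.21, adjusted p = 0.0399, limma). It did not pass when libraries were centred (adjusted p = 0.0802, limma), when FPKM was rescaled (0.0939) or with a replicate block (0.0635). Nor did it pass when any single library was left out, where its log2 fold change ranged from −1.40 to −1.27. KLF4, a factor of differentiating epithelium named here after its values were seen, was the third tested gene and had 2.74 and 1.29 against 7.14 and 7.90, higher in both C/EBPβ enh-/- libraries, without passing (adjusted p = 0.0625, limma). TP63, GRHL2 and OVOL1 stayed below 0.1 in every library.

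**Figure D5:**
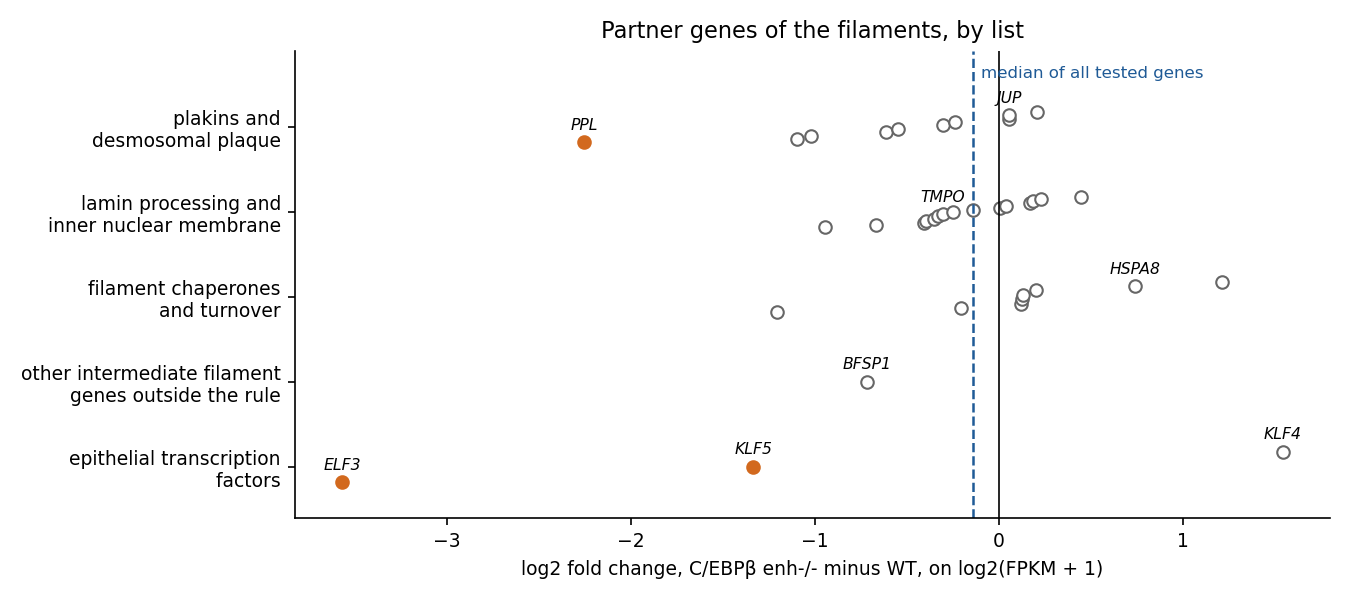
Log2 fold change, C/EBPβ enh-/- minus WT, of the tested genes in 5 lists of filament partners, filled where the adjusted p from limma was under 0.05, with the median of all tested genes dashed. PPL, ELF3 and KLF5 are the genes called lower, and none is called higher.

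Markers of further cell types were mostly low. The 4 muscle markers stayed below 1, with MYH3 the highest at 0.481, 0.387, 0.0982 and 0.134. The matched endothelial markers were led by CDH5, at 0.189 at most. Among leukocyte markers PTPRC reached 0.0589 at most, while CD68, a lysosomal protein, had 3.37, 3.99, 7.79 and 2.17. PECAM1 and EPPK1 of these lists had no matched identifier and were not analysed here. The bile duct list had 6 genes, of which 5 were matched.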

How the data were processed

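RNA was sequenced from 2 WT and 2 C/EBPβ enh-/- libraries, and the authors deposited FPKM per gene for each. The labels give total RNA and an RNA-seq library, but their extraction text describes chromatin immunoprecipitation. The paper's methods name an extraction kit (Fastagen) or Trizol for RNA, without saying which served these libraries. The submitters' processing notes name TopHat2 2.0.13, Cufflinks, edgeR and hg19 without giving their roles. Of 57815 gene entries per library, 57768 stayed after copies in the Y pseudoautosomal regions were dropped, and 55535 were matched by identifier to symbols of GENCODE release 44 lifted to GRCh37.

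Values were analysed as log2(FPKM + 1), so fold changes of genes with low FPKM are understated. Genes averaging an FPKM of 1 or more were tested two-sided with limma 3.58.1 in R 4.3.3 (eBayes with a mean-variance trend), with Benjamini-Hochberg adjustment over all tested genes and a threshold of 0.05, after testing on simulated data. Ratios within a library were compared by exact permutation of the libraries.

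Named genes were all tested members, KRT19, members reaching an FPKM of 1 in a library or highest below the filter, the called and the most abundant genes of each partner list, the most abundant gene of each marker list, and CEBPB. Other list genes in the report were chosen after their values were seen. Members and lists were chosen with earlier results of these data known. Alternatives changed the trend, pseudocount, filter, scaling, block, gene set and libraries. Promoter windows came from RefSeq. Protein sequences were not used here.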

Additional observations from a re-analysis of the deposited data

How the results depend on the processing

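With 2 libraries per genotype, calls rest on few degrees of freedom, and when a library was left out the lone one was assumed to vary like the other genotype. Over single genes and alternatives, 224 kept their direction and side of the threshold, 32 kept their direction and lost the call, 3 gained it and 9 changed direction. Most of these genes were not called in the main fit, and only a called gene can lose its call. The 224 therefore do not measure how stable the calls are. KRT8 and KRT18 each kept the call under 6 of 13 alternatives and KLF5 under 5 of 13. Without the trend, KRT8, KRT18 and KRT80 were again the members called lower.

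A pseudocount of 0.1 gave a member median of −1.04. Without a filter, limma called 0 genes lower (2710 before adjustment) and 0 higher (1136 before adjustment), and 0 members lower (11 before adjustment) or higher (1 before adjustment). The median over 47 members was then −0.014, since many members near 0 entered it. A mean FPKM of at least 5 left 9 members with a median of −0.72, and 20 genes higher.

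Rescaling to the same protein-coding total gave 57 lower genes, 1 lower member (KRT80), a member median of −0.66 and an LMNA log2 fold change of 0.0038. Centring gave 68 lower genes and a member median of −0.67, with KRT18 and KRT80 called. Protein-coding genes alone gave 457 lower and 60 higher genes and 5 lower members, adding KRT7 and KRT81. Leaving out genes listed at 0 in any library gave 324 lower and 47 higher genes. The cause was not tested for these shifts.

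Same-numbered libraries did not deviate together (r = 0.00945 over 12491 genes, which are not independent), so the numbers were not taken as pairs. With a replicate block, 93 genes were lower, with KRT8 and KRT80 among them and KRT18 not (adjusted p = 0.0524, limma). KLF5 also lost its call (0.0635).

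KRT8 over KRT18 alone differed by −0.16 on the log2 scale, against −1.26 for type II over type I, since KRT7 and KRT17 are left out of it. Leaving out single libraries gave from 19 to 63 lower and from 5 to 38 higher genes, 0 lower members throughout, and a member median from −0.95 to −0.82. The log2 fold change then ranged from −0.34 to 0.93 for KRT17, −0.63 to 0.19 for LMNA, −0.20 to 0.27 for SYNM, −0.28 to 0.39 for JUP, −1.96 to −0.42 for KRT86 and −0.69 to 2.17 for HSPA8, and the log2 difference of the B-type to A-type lamin ratio from −0.54 to 0.19, against −0.18 with all libraries. Fewer samples enter each of these fits.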
